A study of Mus musculus with 14 samples.

Results

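The genes described here are the mitochondrial ribosomal proteins, taken as every gene of the array whose symbol begins with Mrpl or Mrps followed by a digit. There were 76 such genes among the 18193 named genes measured, and each was read from its brightest probe set, by the mean of the 14 arrays. The samples were 3T3-L1 cells, a mouse preadipocyte line that can be induced to become fat cells. All cells had been transduced with lentivirus, carrying a scrambled sequence in the control cells and a TP53INP2 siRNA sequence in the cells labelled KD TP53INP2, called knockdown cells below. Total RNA was taken at day 0, when the cells were confluent and not yet induced, from 3 control and 3 knockdown samples, and at day 7 of differentiation from 4 control and 4 knockdown samples. Each sample was hybridised to its own expression array. The labels name a single cell line and give replicate numbers, but do not say whether replicates came from separate cultures or transductions, so a p-value here speaks to the spread among these particular samples, part of which may be technical.

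The mitochondrial ribosome sits in the mitochondrial matrix and translates the few messages of mitochondrial DNA, which encode core subunits of the respiratory chain and of ATP synthase. All of its proteins are encoded in the nucleus and imported; some descend from the bacterial ribosome and others are found only in mitochondria. White fat cells acquire more mitochondria as they differentiate, and this supports lipid synthesis and fatty acid oxidation. The arrays measured messenger RNA, so ribosome assembly and the rate of mitochondrial translation were not analysed here.

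Genes of this family often have promoters rich in CG and start close to a gene on the other strand. RefSeq promoter windows, which run from 250 bases before to 50 bases after the annotated start on GRCm38.p6, were found for 67 of the 76 members. A set of 4 motifs was searched on both strands, with overlapping matches allowed: an NRF1 site, the ETS factors including GABPA as CCGGAAG, YY1 as AAGATGGCG and the E-box as CACGTG. The NRF1 pattern allowed any base at a middle position, so its matches need not be palindromes. A gene was counted if any of its windows held the motif, so genes with several windows had more room for a match. The ETS letters were found for 25 of the 67 members (37.3%), against 15% of the 14367 tested genes with a window and 9.93% of all 27025 genes with a window. The NRF1 letters were found for 12 members (17.9%, against 8.63% of tested genes), the YY1 letters for 8 (11.9%, against 2.54%) and the E-box for 5 (7.46%, against 10.3%). Another gene's window on the opposite strand overlapped that of 23 members (34.3%, against 15.5% of tested genes). A match is a description of these letters and not evidence of binding. Below are the bases before the start for the 6 members with the largest increase in knockdown cells, 5′ to 3′ on the gene's own strand, because this comparison had the most members passing. Capitals mark NRF1 or ETS letters on either strand. Windows were shortened where another gene's annotated range began.
Mrpl12: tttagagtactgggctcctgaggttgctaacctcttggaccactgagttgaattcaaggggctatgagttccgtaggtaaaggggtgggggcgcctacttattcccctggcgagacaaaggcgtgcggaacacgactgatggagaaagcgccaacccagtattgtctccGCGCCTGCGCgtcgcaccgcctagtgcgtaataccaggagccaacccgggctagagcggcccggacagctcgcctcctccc
Mrpl45: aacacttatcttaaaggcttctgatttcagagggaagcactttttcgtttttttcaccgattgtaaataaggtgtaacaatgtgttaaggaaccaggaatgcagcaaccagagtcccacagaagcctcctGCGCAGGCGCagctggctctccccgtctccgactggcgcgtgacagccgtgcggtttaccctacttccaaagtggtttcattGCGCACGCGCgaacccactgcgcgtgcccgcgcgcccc
Mrps27: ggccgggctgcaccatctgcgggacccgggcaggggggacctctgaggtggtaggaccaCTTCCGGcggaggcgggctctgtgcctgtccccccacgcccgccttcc
Mrps22: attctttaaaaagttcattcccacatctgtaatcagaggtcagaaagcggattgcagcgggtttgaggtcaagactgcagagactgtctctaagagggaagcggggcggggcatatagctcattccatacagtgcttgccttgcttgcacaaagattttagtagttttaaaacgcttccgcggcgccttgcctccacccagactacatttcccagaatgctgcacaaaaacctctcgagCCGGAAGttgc
Mrpl1: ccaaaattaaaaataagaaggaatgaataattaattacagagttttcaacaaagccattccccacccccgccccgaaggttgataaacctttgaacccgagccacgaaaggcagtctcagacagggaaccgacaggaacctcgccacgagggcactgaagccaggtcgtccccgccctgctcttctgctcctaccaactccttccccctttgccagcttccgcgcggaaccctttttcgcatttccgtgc
Mrpl46: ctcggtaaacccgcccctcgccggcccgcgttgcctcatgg
The Mrpl12 window was chr11:120484387-120484636 (plus strand) with NRF1 letters 81 bases before the start. The Mrpl45 window was chr11:97315466-97315715 (plus) with NRF1 letters 120 and 38 bases before the start. The Mrps27 window was chr13:99344679-99344785 (plus), 107 bases long because Ptcd2 begins beyond it, with ETS letters 48 bases before the start. The Mrps22 window was chr9:98601680-98601929 (minus) with ETS letters 11 bases before the start. None of the 4 motifs was found in the Mrpl1 window, chr5:96209865-96210114 (plus), or in the 41 bases of Mrpl46, chr7:78783090-78783130 (minus). Beyond those 41 bases lies Mrps11, itself a mitochondrial ribosomal protein gene.

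Values are log2 expression, so a difference of 1 is a doubling, and they ran from 1.13 to 14.37 over the table with array medians between 5.44 and 5.57. Trp53inp2, the targeted gene, read 12.45, 12.53 and 12.38 in controls and 11.06, 11.14 and 11.66 in knockdown cells at day 0. At day 7 it read 11.74, 11.77, 11.78 and 11.70 in controls and 10.20, 10.06, 10.01 and 10.45 in knockdown cells. The knockdown samples lay below their controls at both days, at 44.4% of the control level at day 0 (−1.17 ± 0.15, log2 difference ± SE) and at 33.7% at day 7 (−1.57 ± 0.13). Of 11 mature adipocyte markers 9 rose from day 0 to day 7 in control cells, adiponectin (Adipoq) by 5.87 ± 1.05. Of 6 macrophage markers none passed in any comparison; group means were 2.23 to 3.36 for Adgre1, Itgam and Ptprc, near the bottom of the scale, and 6.39 to 9.14 for Cd68, Cd14 and Csf1r. In these bulk samples, fewer cells of a type and less RNA per cell cannot be told apart. Replicates 1 and 2 of a group stood close together. Without the dimmest 40% of genes, the SD of their difference at day 7 was 0.111 for controls and 0.179 for knockdown cells. Other day 7 pairs gave 0.307 to 0.541. Replicate 3 at day 7 had the lowest adipocyte markers of its group in both genotypes, with a median of 1.91 in control and 3.08 in knockdown cells above the day 0 controls.

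The level of the family was first summarised within each array. Relative to the day 0 control mean, the day 0 controls had a median of −0.02, 0.02 and 0.01 and the day 0 knockdown cells of 0.01, 0.12 and 0.01. At day 7 it was 0.49, 0.52, 0.19 and 0.32 in controls and 0.89, 0.89, 0.45 and 0.85 in knockdown cells, in the order of replicates 1 to 4. Every day 7 array thus stood above every day 0 array, and the knockdown array stood above the control array of the same number in all 4 day 7 pairs. The ranges of the day 7 groups overlapped only through knockdown replicate 3, which lay below control replicates 1 and 2. As means over arrays these medians were 0.38 ± 0.16 in controls and 0.77 ± 0.21 in knockdown cells (SD, n = 4 each) at day 7.

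**Figure D1:**
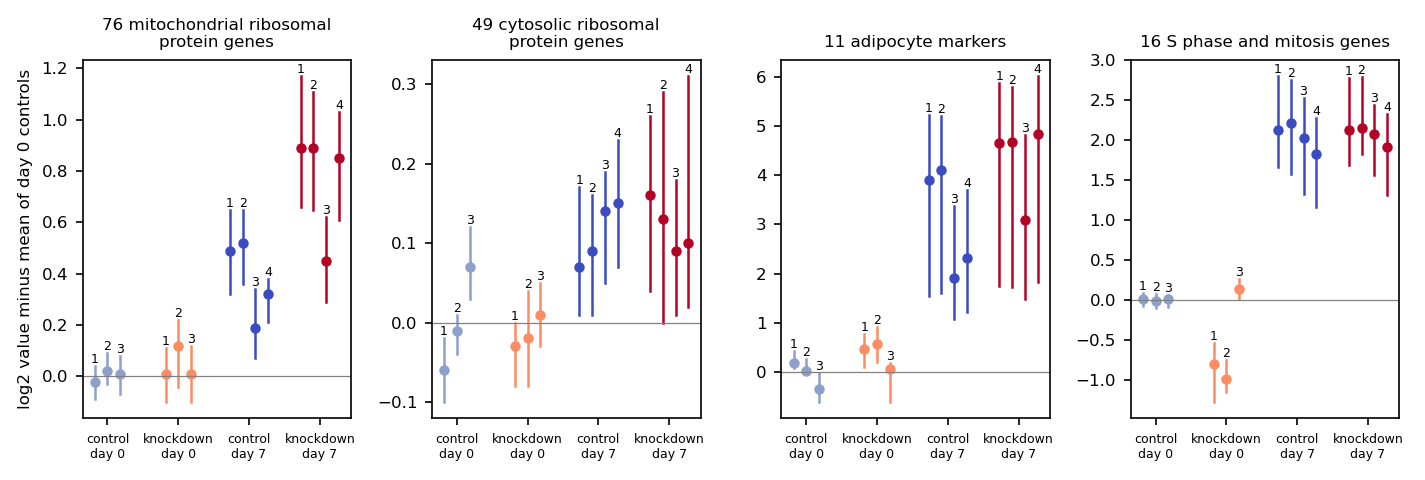
Each point is the median log2 value of a gene list in 1 array minus the mean of the day 0 controls, with the interquartile range over genes as a line and the replicate number above it; the 4 panels have separate vertical scales. The mitochondrial ribosomal protein median reached 0.89 in day 7 knockdown cells, while the cytosolic ribosomal protein median stayed between −0.06 and 0.16 in all arrays.

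Differentiation of control cells was compared first, to ask whether the mitochondrial translation machinery moves when preadipocytes become fat cells. From day 0 to day 7, 31 of the 76 members rose and none fell by limma's moderated test with Benjamini-Hochberg adjustment over all 18193 genes (threshold 0.05). The rise was modest, with a median over all members of 0.38 (1.3-fold), an interquartile range of 0.26 to 0.48 and 74 of 76 values above 0. Among all genes 22.9% passed, 10.1% as higher and 12.8% as lower, and among the brighter 60% of genes, where all 76 members lie, 15.5% passed as higher; the median of all genes was −0.01. The day 0 and day 7 control arrays did not overlap for 45 members, all higher at day 7, against 14.2% of all genes as higher and 18.6% as lower. The mitotic and replication genes moved with it: all 16 of that list rose, with a median of 2.09, as did 9 of 11 adipocyte markers (list median 2.86), while 5 of 8 preadipocyte markers fell (list median −0.48). The part of these lists in the members' rise was not tested. Array quality moved too: the 3′ minus 5′ difference of control probes went from 2.18 ± 0.22 (SD, n = 3) to 1.63 ± 0.26 (n = 4) for Gapdh and from 3.54 ± 0.22 to 3.25 ± 0.31 for beta-actin.

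The largest rise in control cells was that of Mrpl12, which forms with Mrpl10 and Mrpl11 the stalk where translation factors dock. Mrpl12 read 10.32, 10.45 and 10.14 at day 0 and 11.58, 11.73, 10.79 and 11.13 at day 7. All day 7 values lay above all day 0 values, although replicates 3 and 4 had risen less, and the difference was 1.00 ± 0.27 (2.00-fold, limma adjusted p = 0.0164). Its stalk partners did not pass, with values of 0.26 ± 0.12 for Mrpl10 (adjusted p = 0.159) and 0.17 ± 0.10 for Mrpl11 (adjusted p = 0.273). Mrpl1, the protein of the mobile stalk on the other side of the large subunit, read 9.43, 9.49 and 9.49 at day 0 and 10.40, 10.48, 10.22 and 10 at day 7. Its groups were well separated and it rose by 0.80 ± 0.17 (adjusted p = 0.00446). The other Mrpl1 probe sets gave 0.04 and 0.92, neither passing by limma over all probe sets (adjusted p = 0.915 and 0.082).

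Other members of the large subunit with large rises were Mrpl18, Mrpl50 and Mrpl45. Mrpl18, whose bacterial counterpart binds 5S ribosomal RNA, read 9.65, 9.84 and 9.65 at day 0 and 10.74, 10.76, 10.28 and 10.21 at day 7 (adjusted p = 0.00882). Mrpl50, found only in mitochondrial ribosomes, read 8.05, 8.27 and 8.43, then 9.15, 9.22, 8.92 and 8.79 (0.77 ± 0.15, adjusted p = 0.00329). Mrpl45, which lies at the tunnel exit and tethers the ribosome to the inner membrane, read 7.05, 7.22 and 7.34, then 8.05, 8.03, 7.94 and 7.60 (0.70 ± 0.15, adjusted p = 0.00473). In each of these genes the groups did not overlap. Mrpl18 overlaps the gene Tcp1 in the annotation, and how far the probes separate them was not tested.

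In the small subunit the largest rises were those of Mrps22 and Mrps27, both specific to mitochondria, the latter a pentatricopeptide repeat protein. Mrps22 read 10.17, 10.06 and 10.16 at day 0 and 11.07, 11.19, 10.64 and 10.70 at day 7 (0.77 ± 0.17, adjusted p = 0.00541). Mrps27 read 8.89, 8.56 and 8.84, then 9.76, 9.85, 9.12 and 9.21 (0.72 ± 0.20, adjusted p = 0.0221). Mrps12, a protein of the decoding centre, rose by 0.52 ± 0.17 (adjusted p = 0.0438) and Mrps6 by 0.38 ± 0.09 (adjusted p = 0.00756). The groups did not overlap for any of these 4 genes.

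The count in control cells rests on few arrays. It was 1 member when replicates 1 and 2 of each group were averaged to 1 sample, and between 16 and 20 without control replicate 1, 2 or 3 at day 0 (19, 20 and 20) or control replicate 1 or 2 at day 7 (18 and 16). It was 55 without both day 7 replicate 3 arrays and 48 with the beta-actin quality covariate. Over all genes the calls were 4162 with all arrays, 1584 with averaged replicates, 3009 to 3282 without one of those 5 arrays, 4853 without both replicate 3 arrays and 4712 with the covariate. The members' median moved little, between 0.32 and 0.48 over all of these settings.

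In knockdown cells nearly the whole family rose during differentiation. By the same test 69 of 76 members rose and none fell, with a median of 0.78 (1.72-fold), an interquartile range of 0.53 to 0.89 and 13 members at or above a doubling. Among all genes 35.8% passed, 19.0% as higher and 16.8% as lower, and 28.2% of the brighter 60% passed as higher; the median of all genes was 0.01. Day 0 and day 7 arrays did not overlap for 68 members, all higher at day 7, against 21.3% of all genes. The list of mitotic and replication genes rose by a median of 2.93 with all 16 passing, and the adipocyte markers by 3.82 with 10 of 11 passing. Of the 8 preadipocyte markers 5 fell, with a list median of −0.69. The part of these lists was not tested. The count lay between 51 and 72 in every alternative tried.

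Mrpl12 again led, with 10.15, 10.39 and 10.34 at day 0 and 12.44, 12.42, 11.35 and 12.32 at day 7. Replicate 3 lay about a log2 unit below the others yet above all day 0 arrays, and the rise was 1.84 ± 0.27 (3.58-fold, adjusted p = 0.000161). In this genotype the stalk partners also passed, Mrpl10 with 0.81 ± 0.12 (adjusted p = 0.000241) and Mrpl11, among the brightest members, with 0.30 ± 0.10 (adjusted p = 0.0344). Mrpl11 is measured by 4 probe sets; the dimmest gave −0.04 for this comparison, which reverses the sign, and the other ones 0.28 to 0.58.

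Mrpl1 read 9.45, 9.69 and 9.73 in day 0 knockdown cells and 11.41, 11.40, 10.71 and 11.38 at day 7 (1.60 ± 0.17, 3.03-fold, adjusted p = 1.48e-05). Its second brightest probe set gave only 0.30 and did not pass by limma over all probe sets (adjusted p = 0.2). The dimmest gave 2.19 (adjusted p = 0.0003). Mrpl45 read 7.10, 7.16 and 7.11, then 8.71, 8.73, 8.15 and 8.62 (1.43 ± 0.15, 2.69-fold, adjusted p = 1.3e-05). Mrpl46, a protein of the central protuberance, read 8.07, 7.88 and 8.17, then 9.66, 9.5, 8.93 and 9.48 (1.35 ± 0.21, adjusted p = 0.000277). All day 7 values of these genes exceeded all day 0 values, and replicate 3 was the lowest at day 7 in each.

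Of the small subunit, Mrps27 read 8.56, 8.40 and 8.51 at day 0 and 10.19, 10.16, 9.52 and 10.19 at day 7 (1.53 ± 0.20, 2.88-fold, adjusted p = 8.49e-05). Mrps22 read 9.79, 10.16 and 10.03, then 11.53, 11.55, 10.97 and 11.48 (1.39 ± 0.17, adjusted p = 4.02e-05). Neither gene's groups overlapped. Mrps12 rose by 0.87 ± 0.17 (adjusted p = 0.00136) and Mrps34, a mitochondria-specific protein, by 0.62 ± 0.16 (adjusted p = 0.00894).

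**Figure D2:**
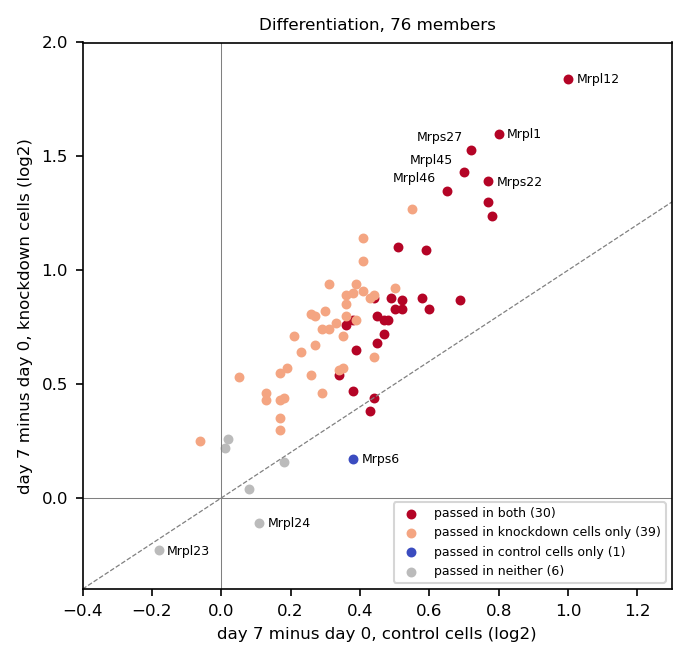
Each of the 76 members is placed by its log2 difference, day 7 minus day 0, in control cells (horizontal) and in knockdown cells (vertical), with colour showing in which comparison it passed and the dashed line marking equal values. Of the 76 points, 70 lie above the dashed line.

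The pair of differentiation comparisons shares no array. A total of 30 members passed in both, which is 30 of the 31 control calls and 30 of the 69 knockdown calls, and 39 passed in knockdown cells alone. Mrps6 passed in control cells alone. The value was larger in knockdown cells for 70 of 76 members. The difference between the 2 rises is itself a contrast of the fit, for which no member passed. By limma 32 members had an unadjusted p under 0.05, as had 2403 of all 18193 genes.

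A further 6 members passed in neither. Mrpl23 and Mrpl24, both at the polypeptide exit tunnel, stood out for their sign. Mrpl23 read 8.76, 8.96 and 8.97 in day 0 controls and 8.55, 8.61, 8.75 and 8.96 in day 7 controls, and in knockdown cells 8.99, 9.18 and 8.86, then 8.79, 8.88, 8.79 and 8.68. Its differences were −0.18 ± 0.11 and −0.23 ± 0.11 with overlapping groups in both genotypes. Mrpl24 gave 0.11 ± 0.10 in control and −0.11 ± 0.10 in knockdown cells. The remaining members of this kind were Mrpl33, Mrpl48, Mrps15 and Mrps33, with values between 0.01 and 0.26 over both comparisons. These 6 were named after their values had been seen.

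Knockdown was then compared with control at day 0, before induction. None of the 76 members passed by limma, and 4 were below 0.05 without adjustment, 3 of them higher, where 2808 of 18193 genes were; among all genes 1.80% passed, 0.467% as higher and 1.34% as lower. The members' median was 0.05 with 47 of 76 above 0, against a median of −0.05 over all genes. Setting all arrays to one median brought the members' median to −0.01 and that of all genes to −0.12. Groups of 3 did not overlap for 11 members that were higher and 4 that were lower, against 6.89% and 15.7% of all genes. The mitotic and replication genes were lower in knockdown replicates 1 and 2 (array medians of −0.79 and −0.98) and not in replicate 3 (0.14), with no gene of that list passing by limma (8 with an unadjusted p under 0.05).

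The member closest to the threshold was Mrps6, a small subunit protein with a bacterial counterpart. It read 12.46, 12.43 and 12.33 in controls and 12.83, 12.81 and 12.76 in knockdown cells, so that the groups did not overlap, and the difference was 0.39 ± 0.09 (1.31-fold, adjusted p = 0.0543). It passed with the replicate block (0.0327) and with the block within each day (0.0316), and its second probe set gave 0.76 (adjusted p = 0.0143 over all probe sets). Slc5a3 lies within the annotated range of Mrps6, and the share of signal from each was not tested.

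Mrps34 had the largest difference, 0.39, which equals that of Mrps6 at the digits given. Mrps27 had the next largest absolute difference. Mrps34 read 8.05, 8.18 and 7.81 in controls and 8.33, 8.58 and 8.32 in knockdown cells (adjusted p = 0.296). Mrps27 read 8.89, 8.56 and 8.84 in controls and 8.56, 8.40 and 8.51 in knockdown cells (−0.28 ± 0.22, adjusted p = 0.614). Knockdown values were all higher for Mrps34, while for Mrps27 the 2 ranges met at 8.56. Array quality differed here: the 3′ minus 5′ difference of the beta-actin control probes was 3.54 ± 0.22 in control arrays and 2.98 ± 0.25 in knockdown arrays, and for Gapdh it was 2.18 ± 0.22 and 1.77 ± 0.16 (SD, n = 3 each). When the beta-actin value entered the fit as a covariate, the members' median at day 0 was 0.25 and the value of Mrps27 turned to 0.15.

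At day 7 the family was higher in knockdown cells. By limma 22 of 76 members passed as higher and none as lower, with a median of 0.39 (1.31-fold), an interquartile range of 0.27 to 0.53 and 74 of 76 values above 0. Among all genes 6.58% passed, 3.01% as higher and 3.57% as lower, and 4.52% of the brighter 60% passed as higher; the median of all genes was −0.02. The day 7 groups did not overlap for 21 members, all higher with knockdown, against 6.02% of all genes as higher and 6.96% as lower. In the 4 pairs of equal replicate number the members' median difference was 0.42, 0.34, 0.26 and 0.53, and 74, 74, 73 and 74 of 76 members were higher. In all 4 pairs 69 members were higher and none was lower, against 19.4% and 19.7% of all genes. The adipocyte markers were higher in knockdown cells in each pair too, with medians of 0.44, 0.32, 0.90 and 1.88 and none of 11 passing by limma (6 with an unadjusted p under 0.05). Of the 8 preadipocyte markers, with a median of −0.45, Gata3 (0.92 ± 0.18) and Gata2 (0.56 ± 0.15) passed as higher and Pdgfra (−0.49 ± 0.13) and Col3a1 (−0.35 ± 0.07) as lower, and the mitotic genes had pair medians of 0.01 to 0.18. The part of these genes in the members' difference was not tested.

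**Figure D3:**
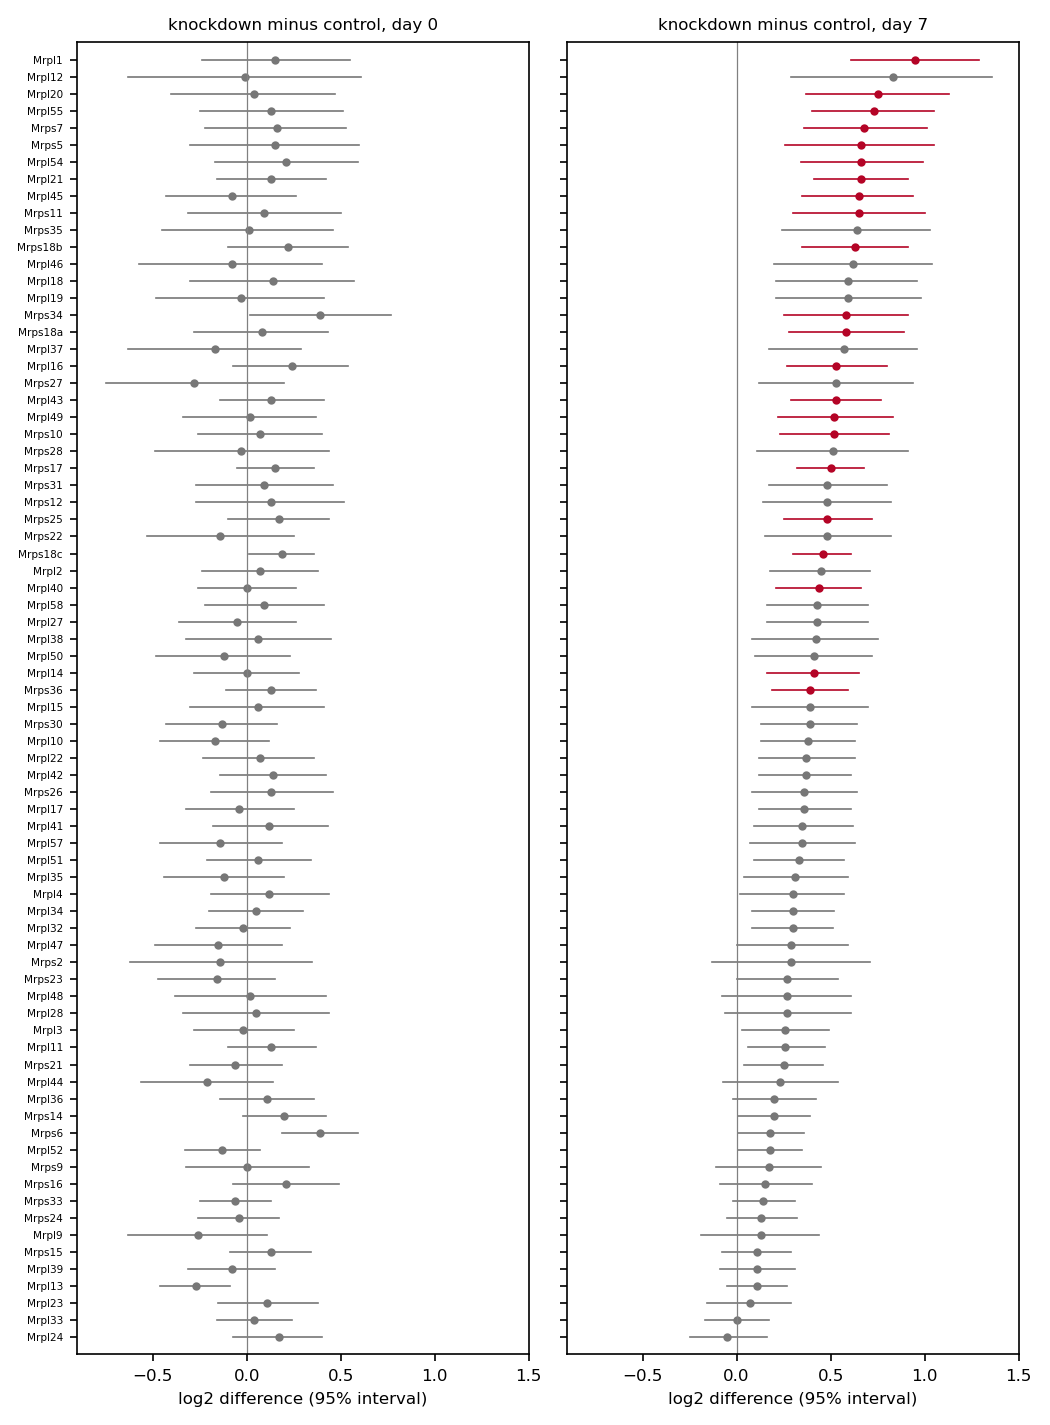
Each row is 1 member with its log2 difference, knockdown minus control, and the 95% interval from the limma fit at day 0 (left) and day 7 (right); red marks an adjusted p under 0.05 and rows are ordered by the day 7 value. The day 0 values spread on both sides of 0, from −0.28 to 0.39, and the day 7 values ran from −0.05 to 0.95.

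Mrpl1 had the largest difference at day 7. Control arrays read 10.40, 10.48, 10.22 and 10, and knockdown arrays 11.41, 11.40, 10.71 and 11.38. All knockdown values lay above all control values (0.95 ± 0.16, 1.93-fold, adjusted p = 0.00606). Its other probe sets gave 1.21 and 0.36, both higher, with the latter not passing over all probe sets (adjusted p = 0.194).

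Another 3 proteins of the large subunit with bacterial counterparts followed. Mrpl20 read 10.24, 10.34, 9.73 and 10.11 in controls and 11, 10.98, 10.42 and 11.03 in knockdown cells (0.75 ± 0.17, adjusted p = 0.0273). Mrpl55 read 8.55, 8.60, 8.56 and 8.32 in controls and 9.42, 9.26, 8.83 and 9.41 in knockdown cells (0.73 ± 0.15, adjusted p = 0.0181). Mrpl21 read 9.49, 9.59, 9.45 and 9.52 in controls and 10.26, 10.21, 9.83 and 10.38 in knockdown cells (0.66 ± 0.12, adjusted p = 0.00779). The groups of all 3 were separate, and in each the lowest knockdown array was replicate 3. Mrpl21 overlaps Ighmbp2 in the annotation. The other Mrpl21 probe sets, both dimmer, gave 0.21 and 0.23 and did not pass by limma over all probe sets (adjusted p = 0.529 and 0.587).

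Mrpl54, specific to mitochondria, read 7.21, 7.21, 7.15 and 7.23 in controls and 8.09, 8.13, 7.47 and 7.76 in knockdown cells (0.66 ± 0.15, adjusted p = 0.0256). Its other probe set, with a low mean of 4.21, gave 0.23 and did not pass by limma over all probe sets (adjusted p = 0.407). Mrps7, of the head of the small subunit, read 10.87, 11, 10.58 and 10.77 in controls and 11.82, 11.65, 11.03 and 11.47 in knockdown cells (adjusted p = 0.0232). Knockdown values were all above control values in both genes, in Mrps7 by a narrow margin. Mrps7 overlaps Gga3 and Mif4gd in the annotation.

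Among members chosen for their place in the ribosome, Mrpl45 at the tunnel exit was higher at day 7 (0.65 ± 0.14, adjusted p = 0.0201), as were Mrps34 (0.58 ± 0.15, adjusted p = 0.0406) and Mrps18a (0.58 ± 0.14, adjusted p = 0.0316), which belongs to the large subunit in spite of its symbol. Mrpl12 had the second largest value and did not pass, at 0.83 ± 0.25 (adjusted p = 0.0645), with control values of 10.79 to 11.73 and knockdown values of 11.35 to 12.44. Mrpl10 (0.38 ± 0.12), Mrpl11 (0.26 ± 0.09), Mrps12 (0.48 ± 0.16) and Mrps30 (0.39 ± 0.12) did not pass either, with adjusted p-values of 0.0695 to 0.113. Mrps36, now known mainly as a subunit of the oxoglutarate dehydrogenase complex, was higher by 0.39 ± 0.09 (adjusted p = 0.0309). The other members that passed were Mrpl14, Mrpl16, Mrpl40, Mrpl43 and Mrpl49 of the large and Mrps5, Mrps10, Mrps11, Mrps17, Mrps18b, Mrps18c and Mrps25 of the small subunit, with values between 0.41 and 0.66.

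How many members passed at day 7 depended on the setting far more than their direction did. Same-numbered arrays of the 2 genotypes deviated together within a day, and with the replicate block 35 members passed, 21 of the 22 among them; with a block within each day 50 did, again with 21 shared. With replicates 1 and 2 of each group averaged to 1 sample no member passed, and with only the day 7 arrays in the fit 5 did. Leaving out single arrays gave 52 without knockdown replicate 3, 13 without control replicate 1, 8 without control replicate 3, 6 without control replicate 4 or knockdown replicate 4, and 4 without knockdown replicate 1 or 2. The count was 46 without both day 7 replicate 3 arrays and 54 with the beta-actin covariate. The calls over all genes moved too: 1197 in the fit described first, 1850 and 2680 with the 2 blocks, 64 with averaged replicates, 333 with only the day 7 arrays and 2804 with the covariate. They were 2885 without knockdown replicate 3, 369 to 461 without knockdown replicate 1, 2 or 4, 558 to 713 without control replicate 1, 3 or 4, and 2188 without both replicate 3 arrays. Over all these settings the members' median stayed between 0.34 and 0.50.

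**Figure D4:**
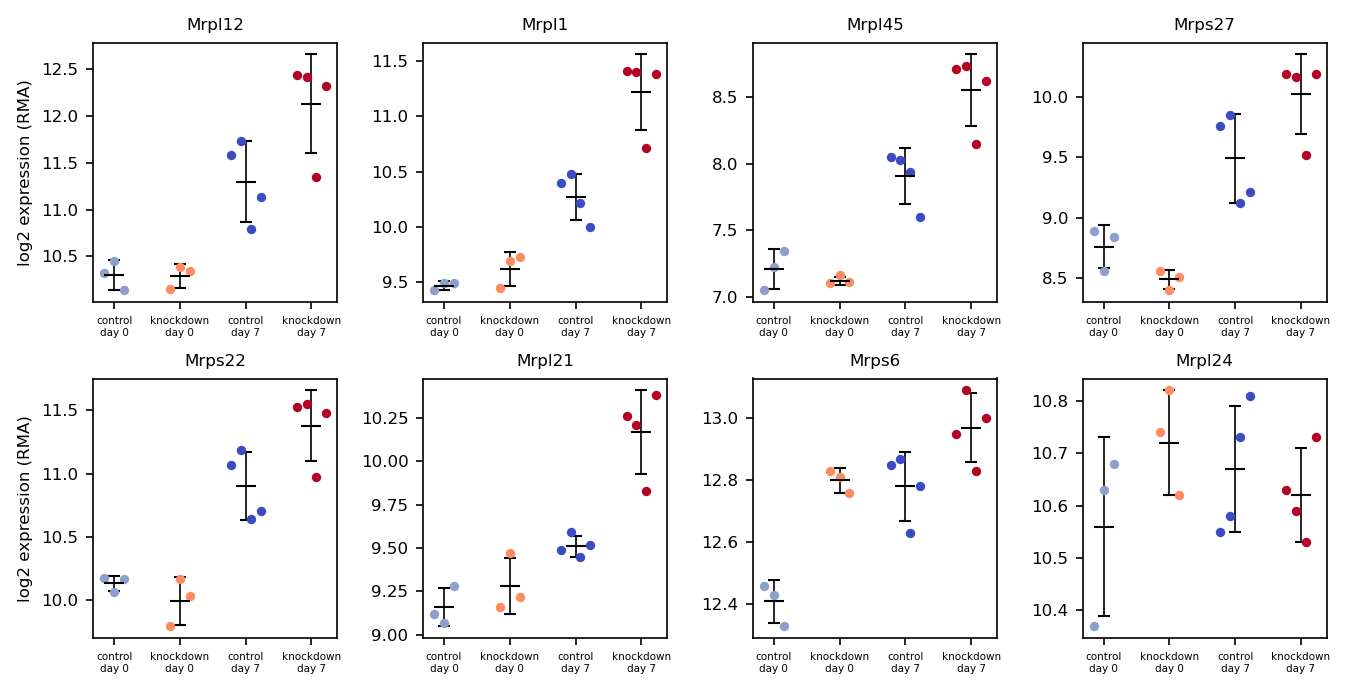
Each panel gives the log2 expression of 1 member in every array (points), with the group mean and SD (black), for genes named in the text; the panels have separate vertical scales that do not start at 0. Replicate 3 is the low point of the day 7 knockdown group for Mrpl12, Mrpl1, Mrpl45, Mrps27, Mrps22 and Mrpl21, while Mrpl24 shows overlapping groups throughout.

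The difference between the day 7 and day 0 knockdown effects, which equals the difference between the 2 rises with differentiation, was tested directly. No member passed by limma (lowest adjusted p = 0.184, for Mrpl45), and 32 were below 0.05 without adjustment, all with the larger effect at day 7, where 2403 of 18193 genes were, 1550 of them in that direction; among all genes 0.022% passed, 0.0165% as higher and 0.0055% as lower, and 0.0183% of the brighter 60% as higher. The members' median difference was 0.38 with 70 of 76 above 0, against 0.04 over all genes. The largest values were 0.84 ± 0.38 for Mrpl12, 0.81 ± 0.29 for Mrps27 and 0.79 ± 0.24 for Mrpl1, with adjusted p-values of 0.368, 0.266 and 0.194. Without knockdown day 7 replicate 3, 7 members passed (Mrpl1, Mrpl10, Mrpl21, Mrpl45, Mrps18a, Mrps30 and Mrps35), and without both replicate 3 arrays 5 did. Over all genes 317 (172 higher) and 266 (135 higher) passed in these settings, against 4 with all arrays.

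The counts and medians of the 2 subunits lay close together, and their difference was not tested. Of 49 members of the large subunit, 22 rose with differentiation in control cells, 45 in knockdown cells and 12 were higher with knockdown at day 7, with medians of 0.38, 0.78 and 0.38. Of 26 members of the small subunit the counts were 9, 23 and 9, with medians of 0.38, 0.74 and 0.48. The 45 members with a bacterial counterpart had medians of 0.38, 0.78 and 0.36, and the 30 found only in mitochondria 0.40, 0.83 and 0.43. At day 0 the medians of these 4 groups were between 0.01 and 0.11 and none of their members passed. Mrps30, the other protein of the large subunit with a small subunit symbol, read 10.70, 10.77 and 10.95 in day 0 controls and 11.14, 11.28, 10.95 and 11.06 in day 7 controls (0.30 ± 0.13, adjusted p = 0.117). It rose by 0.82 ± 0.13 in knockdown cells (adjusted p = 0.000268).

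A second probe set was available for 42 members, with the second brightest used here. It had the sign of the brightest for 35 of 42 members in control differentiation, 38 in knockdown differentiation, 27 for knockdown at day 0 and 33 for knockdown at day 7. Second probe sets passed as higher for 13, 25, 1 and 5 members in these comparisons and as lower for 0, 0, 1 and 0. Their medians were smaller than those of the brightest in the differentiation comparisons, at 0.30 against 0.36 in control and 0.49 against 0.73 in knockdown cells. For knockdown they were 0.23 against 0.32 at day 7 and −0.05 against 0.04 at day 0, where the sign reversed.

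Lists of other genes that serve mitochondrial translation were read with the same fit. Over all genes 10.1% passed as higher in control differentiation, 19.0% in knockdown differentiation, 0.467% for knockdown at day 0 and 3.01% at day 7. Among the brighter 60% of genes these shares were 15.5%, 28.2%, 0.66% and 4.52%. As lower, 12.8% and 16.8% of all genes passed in the differentiation comparisons. Of 4 mitochondrial ribosomal proteins with other symbols, 3 rose in control and 4 in knockdown differentiation and 2 were higher with knockdown at day 7, among them Gadd45gip1 (0.55 ± 0.18, 1.02 ± 0.18 and 0.88 ± 0.17). Of 14 translation factors 3 rose in control and 9 in knockdown cells, led by the elongation factors Tufm (0.98 ± 0.20 and 1.43 ± 0.20) and Gfm1 (0.81 ± 0.18 and 1.32 ± 0.18). Guf1, a translation GTPase, was the only factor that passed for knockdown. It was higher at day 0 (0.54 ± 0.11, adjusted p = 0.0344) and at day 7 (0.52 ± 0.10, adjusted p = 0.0120). At day 7, 13 of the 14 factors were above 0, with a median of 0.27. By limma 5 had an unadjusted p under 0.05, all higher. Of 16 mitochondrial aminoacyl-tRNA synthetases 5 rose in control and 10 in knockdown cells, led by Mars2, which charges methionine (1.40 ± 0.32 and 2.57 ± 0.32), and none passed by limma for knockdown at day 0 or day 7 (1 and 3 with an unadjusted p under 0.05).

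The assembly factors were more mixed. Of 20, 5 rose and 2 fell in control cells and 11 rose and 1 fell in knockdown cells. At day 7 4 passed as higher with knockdown: the GTPase Noa1 (0.83 ± 0.18), the ribosomal RNA methyltransferase Mrm2 (0.75 ± 0.15), Mterf4 (0.61 ± 0.15) and the helicase Ddx28 (0.57 ± 0.15). Of 12 genes for transcription, replication and RNA of mitochondrial DNA, 3 rose in control and 9 in knockdown cells, among them Tfam, which packages and transcribes mitochondrial DNA (0.49 ± 0.11 and 0.94 ± 0.11). Supv3l1, a mitochondrial RNA helicase, was the only gene of that list that passed for knockdown at day 7 (0.65 ± 0.16). Of the 12 genes 11 were above 0 in that comparison, with a median of 0.27. By limma 5 had an unadjusted p under 0.05, all higher. No probe set named for a gene of mitochondrial DNA was matched, so the messages that this ribosome translates were not analysed here.

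The 82 nuclear genes of oxidative phosphorylation had smaller medians than the mitochondrial ribosomal proteins, at 0.18 in control differentiation, 0.28 in knockdown differentiation and 0.21 for knockdown at day 7. Of these genes 17, 43 and 10 passed as higher (20.7%, 52.4% and 12.2%) and 1, 1 and 0 as lower. Among the brighter 60% of genes 15.5%, 28.2% and 4.52% passed as higher. Uqcrfs1, the iron-sulfur protein of complex III, was higher with knockdown at day 7 by 0.73 ± 0.20. The 49 cytosolic ribosomal proteins had medians of 0.12, 0.11 and 0.01. Of these cytosolic genes, 7 passed as higher in control differentiation (14.3%) and 16 in knockdown differentiation (32.7%). These shares are close to the 15.5% and 28.2% of the brighter 60% of genes that passed as higher. As lower none of the 49 passed in either comparison, against 12.8% and 16.8% of all genes. In each of them 42 of the 49 values were above 0. For knockdown at day 7 none passed by limma (2 with an unadjusted p under 0.05). Whether the lists differ from each other was not tested.

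**Figure D5:**
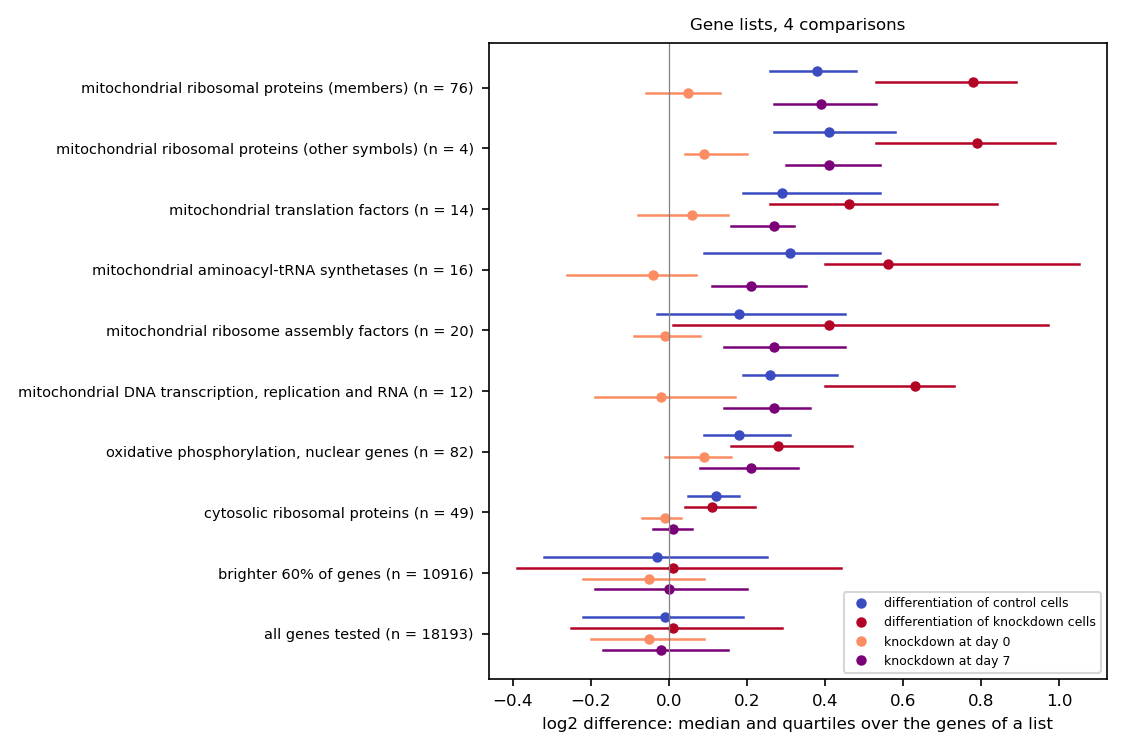
For each gene list the point is the median log2 difference and the line the interquartile range over its genes, in the 4 comparisons. The mitochondrial ribosomal proteins reach 0.38 and 0.78 with differentiation and 0.05 and 0.39 with knockdown at day 0 and day 7, and all genes lie between −0.05 and 0.01.

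Regulators of mitochondrial genes did not move in a common direction with differentiation. Of 9, Myc, a growth regulator that also acts on ribosome genes, rose with differentiation in control (2.18 ± 0.20) and knockdown cells (2.60 ± 0.20), as did the coactivator Ppargc1b (1.68 ± 0.44 and 2.55 ± 0.44). Its relative Ppargc1a fell in both (−1.56 ± 0.24 and −1.23 ± 0.24). The nuclear receptor Esrra rose in knockdown cells (0.69 ± 0.23, adjusted p = 0.0319), and Gabpb1 fell in control cells (−0.40 ± 0.12, adjusted p = 0.0260). Gabpa, the subunit of that factor that binds the ETS letters, was lower with knockdown at day 7 (−0.38 ± 0.09, adjusted p = 0.0248). The median knockdown difference of the 9 at day 7 was 0.38, with 6 above 0 and 3 below. None passed as higher by limma. Of the 9, 5 had an unadjusted p under 0.05, 4 of them higher, as had 4273 of 18193 genes, 2079 of them higher. Nrf1 did not pass in any comparison, with group means of 8.04 ± 0.30 and 7.70 ± 0.28 at day 0 (SD, n = 3 each) and 7.68 ± 0.11 and 8.06 ± 0.28 at day 7 (n = 4 each), control before knockdown.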

How the data were processed

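Per the submitters' processing notes, the authors normalized the arrays with RMA (robust multi-array average, affy; the sources used here give no versions). The deposited table holds log2 values, the log base being read from their range, for 45101 probe sets on 14 arrays. RMA equalizes array distributions, so a shift shared by most genes would not be seen. Depth has no counterpart here; the number of arrays limits the precision.

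Control probe sets (64) and probe sets without a gene (9160) or with several (932) were left out, leaving 18193 genes by platform annotation. Mrpl30 and Mrpl53 lay only on shared probe sets and were not analysed. limma 3.58.1 (R 4.3.3) fitted 4 group means to all 14 arrays, giving 12.6 degrees of freedom after moderation. Adjusted p-values are Benjamini-Hochberg over 18193 genes, threshold 0.05; ± is the SE of a difference or the SD of a group. The script was tested on simulated data. Members, lists and motifs were chosen with earlier results of these data known. Named members were the 6 largest passing differences per comparison (3 largest values where under 5 passed) and 9 with fixed roles; lists give up to 4.

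Deviations of same-numbered arrays correlated within a day (r = 0.23 to 0.32 at day 0, 0.25 to 0.74 at day 7) but at 0.00 to 0.22 between days, so numbers were taken to pair genotypes within a day. At day 7 replicates 1 and 2 correlated as well with each other's number (0.55 and 0.61) as with their own (0.52 and 0.59). These correlations left out the dimmest 40% of genes. Alternatives were a replicate block, renormalization, a filter on dim genes, other probe set rules, averaged close replicates, fewer groups, a beta-actin covariate and leaving out each array.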

Additional observations from a re-analysis of the deposited data

Results flagged for a closer look

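Day 7 knockdown replicate 3 lay far below the other 3 arrays of its group for 7 of the members named above and for the members' median. It read 10.71 for Mrpl1 (others 11.38 to 11.41), 11.35 for Mrpl12 (12.32 to 12.44), 10.42 for Mrpl20 (10.98 to 11.03) and 9.10 for Mrps18a (9.74 to 9.83). It read 10.97 for Mrps22 (11.48 to 11.55), 9.52 for Mrps27 (10.16 to 10.19) and 11.14 for Mrps30 (11.60 to 11.64). The members' median was 0.45 there, against 0.85 to 0.89 in the others. In all, 8 of 44 groups of 4 values were marked by Dixon's criterion, where chance marks about 1 in 20, and since they are readings of 1 array they are not independent.

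For Mrpl10, Mrps27 and Mrps30 the knockdown array was below its control in the day 0 pairs and above it in the day 7 pairs, except that the replicate 2 pair of Mrps30 at day 0 is equal at the digits given (10.77). The knockdown effect differed between the days by 0.55 for Mrpl10, 0.81 for Mrps27 and 0.52 for Mrps30, with limma adjusted p-values of 0.226, 0.266 and 0.251, none of which passed. With the beta-actin covariate the day 0 values of these genes turned to 0.09, 0.15 and 0.03.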

How the results depend on the processing

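Of 1626 values of single named members recomputed under the alternatives, 1454 kept direction and side of the threshold, 103 no longer passed, 55 newly passed and 14 reversed. Reading each gene from its probe set with the widest interquartile range turned Mrpl11 to −0.03 and −0.04 in control and knockdown differentiation and −0.01 in the difference of effects. At day 0 Mrpl12 turned to 0.04 and Mrpl45 to 0.08 after quantile normalization, Mrpl12 to 0.04 with replicates averaged, and Mrps27, Mrpl10, Mrpl12, Mrpl45 and Mrps30 to 0.15, 0.09, 0.53, 0.03 and 0.03 with the beta-actin covariate; Mrpl12 there was −0.09 to 0.06 without single arrays. The count for knockdown at day 7 (22) became 35 with the replicate block, 40 without the dimmest 40% of genes, 0 with replicates 1 and 2 averaged, 5 with only the groups compared, 54 with the beta-actin covariate and 4 to 52 without single arrays. The count for control differentiation (31) became 1 with replicates averaged, 48 with the covariate and 16 to 39 without single arrays; that for knockdown differentiation (69) was 64 to 70. The count at day 0 (0) became 1, Mrps6 each time, with the replicate block, after quantile normalization, without dim genes, with both other probe set rules and with the covariate, and was 0 to 1 without single arrays; its median moved from 0.05 to 0.25 with the covariate. The count for the difference of effects (0) was 0 to 7 without single arrays and 0 with the replicate block; a fit of only the groups compared could not be made for it. Settings chosen after seeing the data gave, without both day 7 replicate 3 arrays, 55, 1, 46 and 5 for control differentiation, day 0, day 7 and the difference, and, with a replicate block within each day, 1 at day 0 and 50 at day 7. The cause of these changes was not tested. The block changed no other count by over 1.5 times.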
